A study of Mus musculus with 9 samples.

Results

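The E12.5 control cortex was described from the 3 embryos titled Ctrl, replicates 1 to 3, of the 9 embryos in the series. Cortical tissue was microdissected from single embryos, with age counted in embryonic days, so each library is 1 animal, and messenger RNA was sequenced. The labels give the genotype of the Ctrl embryos as WT, and whether they carried floxed alleles or Emx1-Cre, the driver used to delete Cnot3 in cortical radial glia of the other embryos, is not given in the sources used here. The mutant embryos were not compared here. With 1 genotype there was no contrast to test, so each value is given per embryo or as mean ± SD over the 3 embryos, and no p-value was computed.

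The cortex at this age is a thin epithelium in which radial glial cells divide at the ventricle and give rise to neurons, either directly or through intermediate progenitors. The earliest neurons settle in the preplate, among them Cajal-Retzius cells, which come in large part from the cortical hem at the medial edge. The hem secretes Wnt and BMP ligands, and it borders the choroid plexus. Vessels, meninges, blood cells and microglia enter or surround the tissue, and whether the meninges were stripped is not given in the sources used here.

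Levels are given as CPM, the count of a gene per 1000000 reads of a library whose size was scaled by TMM. To compare different genes, CPM was divided by the kilobases of exon of the gene and is called the level per kilobase. The 3 libraries held 26455779, 21193798 and 28869816 counted reads, so that 3 reads corresponded to 0.114, 0.141 and 0.104 CPM. Of 57010 genes in the table, 13215 (23.2%) had at least 1 CPM in every Ctrl embryo and are called expressed, and 33351 had no read in any of them. The expressed genes included 11825 of 21880 protein-coding genes (54.0%). Their median level per kilobase was 6.33, with the 90th percentile at 42.3 and the 99th at 347. The 100 highest genes took 18.8% ± 0.227 of counted reads, and 900 to 936 genes were enough to hold 50% of the reads of an embryo. Protein-coding genes held 95.1% to 95.2% of reads, pseudogenes 3.13% to 3.60% and lincRNA genes 0.302% to 0.336%.

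Eef1a1, which encodes the elongation factor that delivers tRNAs to the ribosome, had the highest CPM, at 11962, 12711 and 15403 in replicates 1 to 3. It was followed by a gene with no entry in the annotation used, at 9163, 4834 and 3018 CPM, and then by the chaperone gene Hsp90ab1 (4995 ± 367), the glycolytic gene Gapdh (4427 ± 175), Tubb5 (4401 ± 347) and Tuba1a (4324 ± 283). Hspa8, Hbb-y, Tuba1c, Pkm, Eef2, Hnrnpa1, Ubb, Nedd4 and Ptma completed the 15 highest, between 2743 and 3950 CPM. The 83 cytosolic ribosomal protein genes together took 5.92%, 6.37% and 6.09% of reads.

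Per kilobase, Hbb-y, the embryonic beta-like globin of primitive red cells, ranked highest at 5985 ± 973, just above Eef1a1 at 5359 ± 726. The order of these genes was not the same in every embryo, since Eef1a1 was higher in replicate 3. Tuba1a, an alpha-tubulin of young neurons, came next at 2398 ± 157. The adult-type alpha globins Hba-a2 (2245 ± 760) and Hba-a1 (2104 ± 775) had the largest ratios between embryos among the 15 highest, 2.05 and 2.20, which became 1.65 and 1.73 after a correction for GC content. Ptma, a chromatin-associated acidic protein, was the most even of them, at 1876 ± 23.0.

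**Figure D1:**
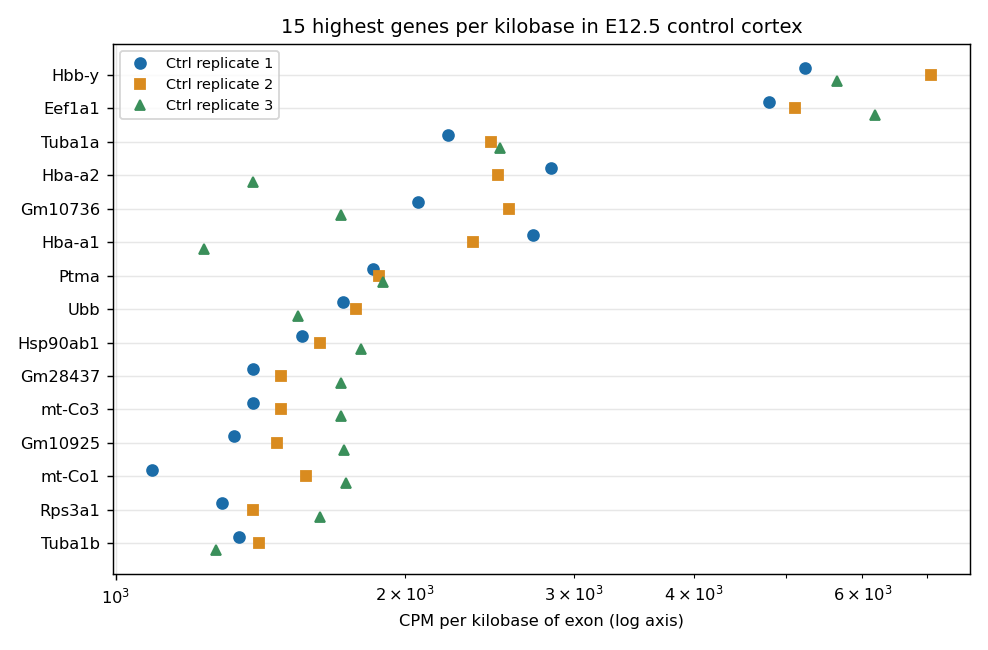
Level per kilobase of exon (log axis) of the 15 genes with the highest mean, 1 point per Ctrl embryo. Hbb-y and Eef1a1 stand apart at means of 5985 and 5359, and Hba-a2 and Hba-a1 are lowest in replicate 3.

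Some of these levels are uncertain, because near-identical copies had near-equal counts, as they would if a read matching several places were counted at each. The mitochondrial gene mt-Co3 and the chromosome 1 pseudogene Gm28437 had 28723 and 28706 reads in replicate 1, 24859 and 24833 in replicate 2, and 38735 and 38707 in replicate 3. The same held for mt-Co2 and Gm28661, whose reads differed by 0.210% to 0.305%. Gm28437 therefore stands among the highest genes without evidence of RNA of its own. Whether the reads of the pseudogenes Gm10736 and Gm10925 come from other genes was not tested. How reads of other close paralogs, such as Hba-a1 and Hba-a2 or the alpha-tubulin genes, were divided was not tested. The mitochondrial genome took 0.663%, 0.836% and 0.949% of reads.

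All 6 marker genes chosen for cortical progenitors and neurons were well above the floor in each embryo. Pax6, a homeodomain factor of dorsal radial glia (chromosome 2, 105668900 to 105697364, plus strand, GRCm38), had 142, 140 and 129 CPM. Sox2, a stem cell factor (chromosome 3, 34650405 to 34652461, plus strand), had 158, 116 and 106 CPM. Eomes, the T-box factor of intermediate progenitors (chromosome 9, 118478212 to 118486132, plus strand), had 157, 149 and 143 CPM. The ratio of the highest to the lowest embryo was 1.10 for Pax6 and for Eomes and 1.48 for Sox2.

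Tbr1, the T-box factor of early-born glutamatergic neurons (chromosome 2, 61802930 to 61814114, plus strand), had 149, 138 and 133 CPM. Tubb3, a tubulin of young neurons (chromosome 8, 123411424 to 123422015, plus strand), had 715, 636 and 463 CPM and the highest level per kilobase of the 6, at 324 ± 68.9. Emx1, a homeodomain factor of the dorsal telencephalon (chromosome 6, 85187438 to 85204462, plus strand), had 112, 65.7 and 42.2 CPM. Emx1 was thus the least even of the 6, with a highest-to-lowest ratio of 2.65.

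The base composition of the transcript went along with this unevenness, so the opening of the coding sequence is shown for 2 GC-rich genes that differed 2-fold between embryos and for 1 AT-rich gene that did not. Each line gives the first 90 coding bases, 5′ to 3′, with G and C in capitals, from GENCODE M21 transcripts on GRCm38.
Emx1: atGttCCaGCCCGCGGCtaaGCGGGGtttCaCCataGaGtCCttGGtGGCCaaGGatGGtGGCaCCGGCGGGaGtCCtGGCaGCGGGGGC
Neurod2: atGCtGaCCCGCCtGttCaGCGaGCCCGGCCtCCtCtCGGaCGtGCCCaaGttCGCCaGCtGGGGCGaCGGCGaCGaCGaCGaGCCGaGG
Neurod6: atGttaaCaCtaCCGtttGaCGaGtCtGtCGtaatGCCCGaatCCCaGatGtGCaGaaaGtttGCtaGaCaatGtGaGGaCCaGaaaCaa
The Emx1 stretch lies in exon 1 at chr6:85187943-85188032 on the plus strand and holds 60 G or C bases of 90. The stretch of Neurod2, a bHLH factor of cortical neurons, lies in exon 2 at chr11:98328247-98328336 on the minus strand and holds 64. Its paralog Neurod6, in exon 2 at chr6:55679561-55679650 on the minus strand, holds 40. Over the longest transcript, GC content was 66.8% for Emx1, 58.7% for Neurod2 and 41.9% for Neurod6. Neurod2 had 55.2, 38.0 and 24.8 CPM, a ratio of 2.23, whereas Neurod6 had 118, 111 and 93.8 CPM, a ratio of 1.25. These genes were picked to show the contrast, and other genes departed from it. Sox3, at 66.4% GC, had a ratio of 1.61, and the paralog Neurod1, at 43.6% GC, had one of 1.77. Dcx, which encodes the microtubule-binding protein doublecortin, was nearly the same in every embryo, at 172, 171 and 174 CPM.

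Genes of radial glia, the neural stem cells of the cortex, were the highest of the neural cell classes. All 16 of the list were expressed, with a median level per kilobase of 38.2 against 6.33 for all expressed genes. The intermediate filament genes Vim (265 ± 28.9) and Nes (155 ± 7.25) led, followed by Fabp7, a fatty acid binding protein of radial glia, at 128 ± 11.03. The Notch targets Hes1 and Hes5 reached 25.9 ± 4.64 and 20.97 ± 5.13, and the receptor gene Notch1 12.6 ± 3.21. Pax6, for all its 11694 bases of exon, stood at 11.7 ± 0.623, and Slc1a3, a glutamate transporter that marks radial glia as they mature, was the lowest of the list at 9.04 ± 0.328. None of the 16 differed 2-fold between embryos, against 4.9% of all expressed genes.

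Cell cycle genes were high in the same libraries. Of the DNA replication list, all 13 genes were expressed at a median of 76.1 per kilobase, led by the ribonucleotide reductase subunit Rrm2 (191 ± 10.4), the sliding clamp Pcna (161 ± 20.7) and the helicase subunit Mcm7 (143 ± 4.33). All 12 genes of the G2 and mitosis list were expressed at a median of 49.9 per kilobase, led by Top2a (102 ± 9.22), Ccnb1 (76.2 ± 8.89) and Plk1 (68.4 ± 9.97). Mki67 had 473, 410 and 599 CPM, highest in replicate 3. Within the replication list 1 of 13 genes, Cdt1, which licenses origins, passed 2-fold, against 4.9% of all expressed genes, at 107, 69.8 and 51.6 CPM. Its ratio was 2.07, and 1.57 after a lowess correction of log2 CPM for GC content, so that it was then under 2-fold.

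Intermediate progenitor genes were expressed in all 12 cases, with a median of 20.99 per kilobase. Neurog2, the proneural factor of the dorsal telencephalon, led at 66.6 ± 10.9, ahead of Hes6 at 40.4 ± 5.98 and Eomes at 35.96 ± 1.71. The Notch ligand genes Dll1 (24.5 ± 4.21) and Dll3 (4.50 ± 0.894) were both present. Neurod4 was the lowest, at 0.810 ± 0.258. Gadd45g, a stress and differentiation gene of newly committed cells, had 22.7, 11.7 and 5.70 CPM in replicates 1 to 3 and was the 1 member of 12 with a 2-fold spread, against 4.9% of all expressed genes, at a ratio of 3.98 before and 2.66 after the GC correction.

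Neuronal genes were also all expressed, 15 of 15, at a median of 16.3 per kilobase. Behind Tubb3 came Neurod6 (50.0 ± 5.73) and the intermediate filament gene Ina (25.6 ± 3.08). The neurofilament genes Nefm and Nefl stood at 2.01 ± 0.319 and 1.48 ± 0.291, and Rbfox3, which encodes a splicing factor of neuronal nuclei, at 2.89 ± 1.06. Neurod2 and Rbfox3, both GC-rich, were the members past 2-fold between embryos, 2 of 15 against 4.9% of all expressed genes, and after the GC correction their ratios of 2.23 and 2.18 became 1.59 and 1.57. The study drew 2 lists of its own from single-cell data of other work. Its 56 progenitor-enriched genes had a median of 59.0 per kilobase and its 57 neuron-enriched genes one of 18.6, and all genes of both lists were expressed.

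Among layer genes, the deep-layer and subplate list had the higher median, 6.40 per kilobase over 11 genes against 1.96 over 7 upper-layer genes. The summed levels of the lists were alike, at 565, 518 and 491 CPM for the deep-layer and subplate list and 589, 502 and 462 CPM for the upper-layer list. Fezf2, which specifies subcerebral neurons and is also present in progenitors, stood at 29.7 ± 4.78 per kilobase, Tbr1 at 25.5 ± 1.56 and the subplate gene Nxph4 at 22.6 ± 5.03. Bcl11b, which encodes CTIP2, reached 7.62 ± 1.32. Foxp2 stood at 0.432 ± 0.0756, and Cplx3, a subplate gene of later stages, had no read in any embryo. Genes named for upper layers had a median of 1.96 per kilobase, but their leading members Pou3f3 (29.8 ± 6.48) and Cux1 (11.8 ± 0.528) are also used by progenitors. Rorb, a layer IV gene, had 1.06, 1.78 and 1.49 CPM.

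Cajal-Retzius genes were expressed in 10 of 11 cases, with a median of 3.54 per kilobase. Reln, whose secreted product guides migrating neurons, had 93.9, 70.0 and 88.3 CPM. Trp73, a p53 family member of hem-derived Cajal-Retzius cells, had 23.4, 22.3 and 16.0 CPM. The chemokine receptor gene Cxcr4 (16.8 ± 2.22 per kilobase), Nhlh2 (5.69 ± 0.320) and Ebf2 (4.73 ± 0.748) led the list. Lhx5 was under 1 CPM in 2 of the 3 embryos, with 0.872, 1.03 and 0.625 CPM.

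Of 341 transcription factor genes in 28 families, 167 were expressed, against 54.0% of all protein-coding genes. Lhx2, a LIM homeodomain gene needed for cortical identity, was the highest at 141 ± 39.1 per kilobase, with 794, 619 and 450 CPM. Id4, an inhibitor of bHLH factors, followed at 138 ± 10.4 and overlapped it in range. Tcf3, which encodes bHLH partner proteins (E proteins), stood at 72.4 ± 32.3 and was the least even of those shown, with 427, 285 and 166 CPM. Its ratio of 2.57 became 1.60 after the GC correction, beside 1.56 for Sox2. Next came Sox4 (67.1 ± 10.1), Neurog2, Sox2 (61.7 ± 13.3), Sox3 (58.7 ± 13.7), Sox11 (58.2 ± 4.38), Emx2 (57.6 ± 2.70) and Sox12 (56.7 ± 7.26), where neighbours in this order differed by less than the larger of their SDs. Atf4, Neurod6, Mycn and Nr2e1 followed, between 44.9 and 55.1.

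**Figure D2:**
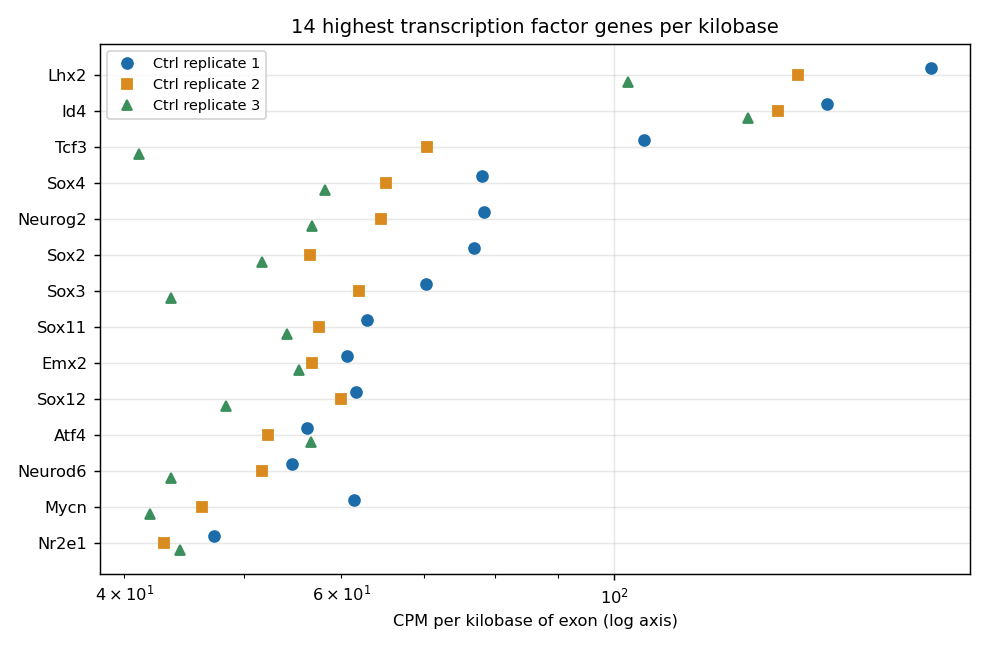
Level per kilobase of exon (log axis) of the 14 highest transcription factor genes, 1 point per Ctrl embryo. Lhx2 and Id4 lead at means of 141 and 138, and Tcf3 and Lhx2 are spread more widely than Emx2, Atf4 and Nr2e1.

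Several families had no expressed member or only 1. Of 9 PAX genes Pax6 alone was expressed, with 137 ± 7.28 CPM, and Pax7 had 1.03 CPM on average. The LIM homeodomain family had 4 of 12 expressed, and Lhx2 was far above Lhx9 (3.83 ± 0.340 per kilobase), Lmx1a (1.46 ± 0.611) and Lhx1 (1.14 ± 0.192). None of the 39 HOX genes, which pattern the hindbrain and trunk, was expressed, and 37 of them had no read. The 14 NKX, 6 DLX and 6 IRX genes had 0 expressed members. In contrast, all members of the E2F (8), NFI (4), MEIS and PBX (7) and MYC (4) families were expressed, as were 15 of 19 SOX genes. The proneural bHLH family had 11 of 21 expressed, led by Neurog2, Neurod6 and Nhlh1.

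The dorsal telencephalic list had 13 of 14 genes expressed and a median of 20.4 per kilobase. Behind Lhx2 and Emx2, Gli3, a transducer of hedgehog signals, stood at 33.6 ± 0.995 and Emx1 at 33.5 ± 16.2. Gli3 was nearly even, with 319, 315 and 333 CPM. The areal patterning gene Nr2f1 had 163, 152 and 121 CPM, and its paralog Nr2f2, which is highest in caudal and ventral tissue, had 18.0, 22.8 and 11.8 CPM. Otx2, also a choroid plexus and hem gene, had 27, 17 and 1 reads.

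Most genes that mark neighbouring brain regions were at or near 0. Of 18 genes of the subpallium and its interneurons, 14 stayed under 1 CPM in every embryo, and 6 (Gsx1, Gsx2, Lhx8, Nkx2-1, Isl1 and Six3) had no read at all. The GABA-synthesis genes Gad1 and Gad2 had at most 0.114 CPM in any embryo, and Dlx1, Dlx2, Dlx5 and Dlx6 at most 0.303 CPM. The list's 3 expressed members, Ebf1 (1.09 ± 0.225 per kilobase) among them, are part of its summed level of 105, 89.5 and 85.0 CPM. From the midbrain and hindbrain list 0 of 10 genes were expressed, and En1, En2, Pax2 and Pax8 had no read. In the list of the diencephalon and eye, Lhx9 (3.83 ± 0.340 per kilobase) and Tcf7l2 (1.497 ± 0.0151) were expressed, while Six6 and Irx1 had no read.

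Of the list for the rostral signalling centre, which secretes FGF proteins, 4 of 8 genes were expressed. Etv5 (9.39 ± 1.12 per kilobase), Sp8 (6.15 ± 0.389) and Spry1 (4.17 ± 0.482) led that list. Fgf8 had no read, Fgf17 and Fgf18 had at most 0.174 CPM, and Fgf15 had 1.63, 1.88 and 0.973 CPM. Of the antihem list, the Wnt antagonist gene Sfrp2 led at 13.1 ± 3.69, ahead of Nrg1 at 1.57 ± 0.130 and Tgfa at 0.717 ± 0.228, and Dbx1 and Fgf7 were under 1 CPM in every embryo.

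**Figure D3:**
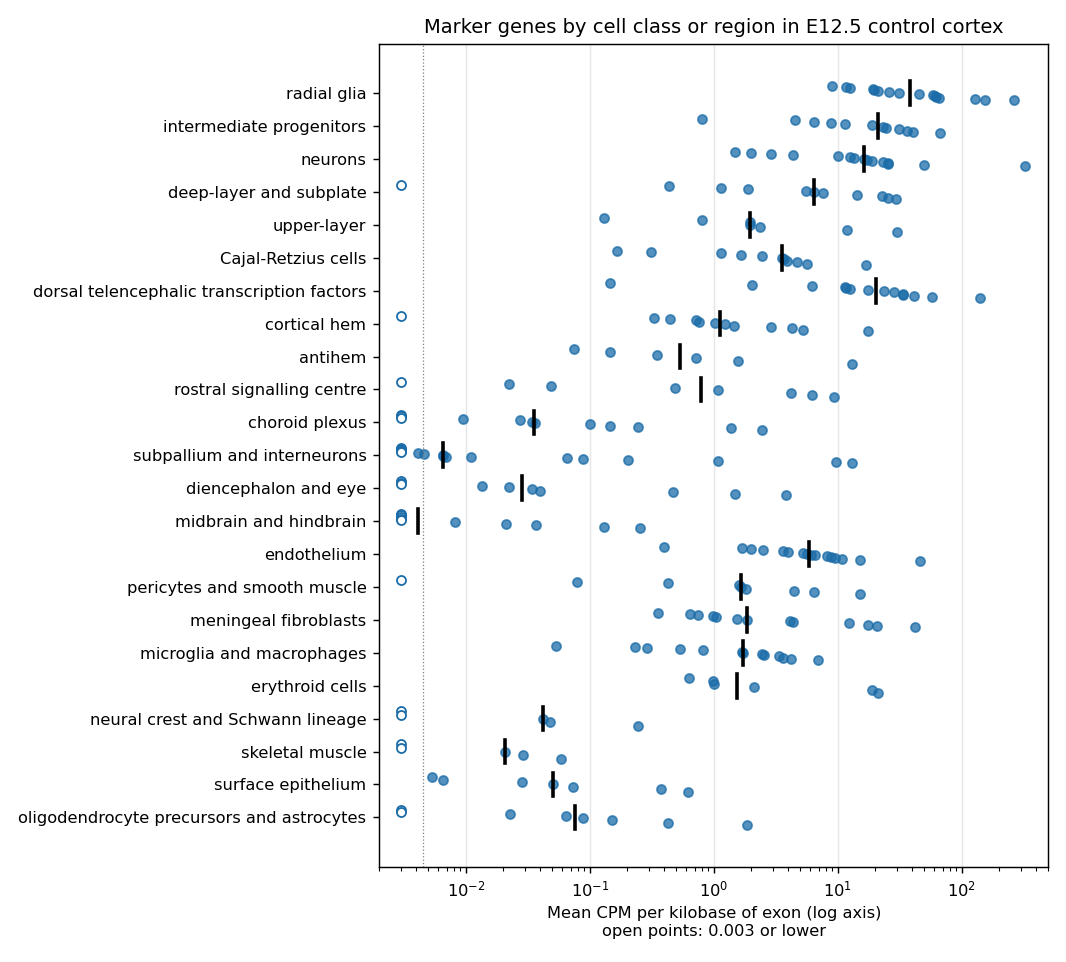
Mean level per kilobase of exon (log axis) of each marker gene over the 3 Ctrl embryos, 1 point per gene, grouped by cell class or region. The black bar is the list median and open points left of the dotted line are at 0.003 or lower. Radial glia lie highest at a median of 38.2, while the medians of the subpallium, the diencephalon and the midbrain and hindbrain lie under 0.1.

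Some cortical hem genes were uneven between embryos. The list had 7 of 12 genes expressed, and 2 of the 7, Rspo1 and Lmx1a, passed 2-fold, against 4.9% of all expressed genes. Wnt8b led at 17.6 ± 2.80 per kilobase, followed by Bmp7 (5.26 ± 0.782) and Rspo1 (4.25 ± 2.77), which encodes an enhancer of Wnt signalling. Wnt3a, the ligand that defines the hem, had 94, 57 and 2 reads in replicates 1 to 3, and Wnt2b had 83, 118 and 12 reads. Rspo1 had 9.90, 12.6 and 2.22 CPM, and the roof plate factor Lmx1a 5.76, 6.52 and 2.61 CPM. Replicate 3 was the lowest embryo for each of these 4 genes and for Wnt5a, Bmp6 and Bmp7. Of the 7 expressed hem genes it was the lowest for 4 and replicate 1 for 3, and replicate 3 was the lowest for 35.0% of all expressed genes.

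Other hem genes did not share that pattern. Wnt8b, which extends from the hem into the hippocampal primordium, had 50.1, 68.8 and 64.3 CPM and was lowest in replicate 1, and Msx1, a BMP target, had 8.57, 9.52 and 9.03 CPM. Bmp4 (1.74, 3.14 and 1.98 CPM) and Msx2 (0.569, 2.20 and 1.60 CPM) were lowest in replicate 1, and Gdf7 had no read. Outside the list, Rspo2 and Rspo3 did share it and were lowest in replicate 3. Rspo2 had 6.94, 11.7 and 0.591 CPM, a ratio of 19.8, and Rspo3, chosen after its values were seen, had 13.3, 21.4 and 10.7 CPM. In a bulk library fewer cells of a type and less RNA per cell cannot be told apart, and how much of the hem each dissection held was not tested.

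**Figure D4:**
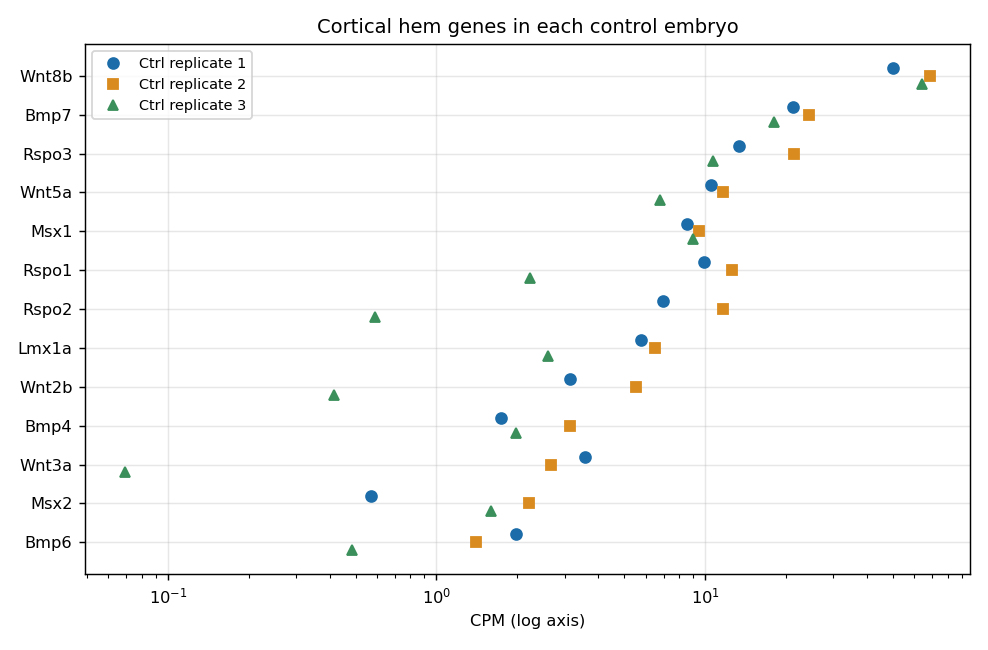
CPM (log axis) of cortical hem genes and of Rspo2 and Rspo3 in each Ctrl embryo. Replicate 3 falls to 2.22 CPM for Rspo1 and 0.591 CPM for Rspo2, while the 3 embryos lie together for Wnt8b and Msx1.

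Choroid plexus epithelium was not detectable through its defining genes. Ttr, the transthyretin gene that dominates this epithelium, and Cldn2 had no read in 3 embryos, which allows up to 0.141 CPM in the shallowest library. Of the 12 genes, Foxj1 (2.44 ± 0.929 per kilobase) and Aqp1 (1.37 ± 0.262) were expressed, and both also mark other cells. Kl, Folr1, Clic6, Kcnj13, Sostdc1, Prlr and Calml4 stayed under 1 CPM in every embryo.

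Blood and vessel genes formed the clearest non-neural signal. Globins took 0.943%, 1.08% and 0.733% of reads. The embryonic globins Hbb-y, Hba-x and Hbb-bh1 stood at 5985, 1165 ± 273 and 500.2 ± 138 per kilobase, and the adult-type Hba-a1, Hba-a2, Hbb-bt and Hbb-bs at 2104, 2245, 620 ± 177 and 479 ± 141. Hbb-bh1 had 214, 326 and 380.2 CPM and was highest in replicate 3, whereas the 4 adult-type genes were lowest in replicate 3. Of the other erythroid genes, Alas2, the first enzyme of heme synthesis in red cells, had 39.5, 59.0 and 55.0 CPM, and Slc4a1, the red cell anion exchanger, 72.3, 125 and 80.5 CPM.

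Endothelial genes were expressed in 16 of 16 cases at a median of 5.89 per kilobase. Slc2a1, the glucose transporter of barrier endothelium that other cells also use, led at 45.7 ± 3.41, followed by the cadherin gene Cdh5 (15.1 ± 2.00) and the lipid transporter gene Mfsd2a (10.9 ± 0.818). Kdr, the VEGF receptor gene, had 58.9, 77.8 and 85.3 CPM. Pericyte genes were led by Vtn (15.2 ± 1.05), Pdgfrb (6.40 ± 0.461) and Rgs5 (4.43 ± 0.723), with Higd1b at no read and Tagln under 1 CPM. Meningeal fibroblast genes were led by Col3a1 (42.0 ± 3.01), Lum (20.9 ± 5.16) and Col1a1 (17.7 ± 3.46).

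Microglia and macrophage genes were low but present, 10 of 13 being expressed at a median of 1.72 per kilobase. The complement genes C1qb (6.88 ± 0.750) and C1qa (4.21 ± 0.404) and the adaptor gene Tyrobp (3.61 ± 1.16) led. Csf1r, the receptor on which microglia depend, had 13.2, 17.3 and 13.3 CPM, and the homeostatic gene P2ry12 had 1.18, 1.22 and 1.67 CPM. Of 5 muscle genes 0 were expressed, with no read of Myod1 or Myf5 and at most 0.234 CPM of the others. Of 5 neural crest and Schwann lineage genes 4 stayed under 1 CPM in every embryo, and Sox10 and Foxd3 had no read. Of 7 surface epithelium genes Epcam was expressed, with 1.29, 1.45 and 1.32 CPM, and the keratin genes Krt5, Krt8, Krt14 and Krt18 stayed under 1 CPM. Of 8 glial genes of later stages 2 were expressed, Pdgfra at 14.4, 17.1 and 23.7 CPM and Cspg4 at 6.75, 4.78 and 3.75 CPM, and meningeal cells and pericytes also use these genes. Olig1 and S100b had no read, and Gfap had at most 0.141 CPM.

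Several non-neural lists were lowest in replicate 1. It was the lowest embryo for 11 of 16 endothelial, 5 of 7 expressed pericyte, 5 of 6 erythroid, 7 of 10 expressed microglial and 6 of 12 expressed meningeal genes, against 36.1% of all expressed genes. Globins did not follow, with replicate 1 lowest for 2 and replicate 3 for 5 of the 7 expressed genes and mean log2 deviations from the mean of the embryos of 0.05, 0.28 and -0.33. The mean log2 deviation of replicate 1 was -0.20 for the endothelial, -0.30 for the erythroid and -0.10 for the meningeal list. For the neuronal list replicates 1 and 3 stood at 0.21 and -0.22, and at 0.17 and -0.18 after a correction for GC content. The values were 0.15 and -0.16 for radial glia and 0.09 and -0.09 after the correction, 0.18 and -0.20 for intermediate progenitors and 0.06 and -0.03 after it, and 0.23 and -0.24 for the dorsal telencephalic list and 0.10 and -0.07 after it. The rostral list, with 4 expressed genes, had -0.06 and 0.04. The endothelial value of replicate 1 after the correction was -0.26. Whether the share of vessels in the tissue moved these values was not tested.

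The genes that the study deleted in other embryos were present at even levels. Cnot3, a subunit of the CCR4-NOT complex that shortens poly(A) tails, had 109, 101 and 94.6 CPM, and Trp53, which encodes p53, had 220, 240 and 207 CPM. All 11 CCR4-NOT genes were expressed at a median of 19.4 per kilobase. Cnot9 (43.7 ± 0.759), the deadenylase gene Cnot6 (42.1 ± 1.62) and the deadenylase gene Cnot8 (30.2 ± 0.737) were the highest, and Cnot6l (4.58 ± 0.167) and Cnot4 (4.54 ± 0.204) the lowest. Cnot3 stood at 14.3 ± 1.01, the eighth of the 11. The largest ratio between embryos in this complex was 1.26, for the scaffold gene Cnot1.

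Immediate early genes, which respond to handling and stimulation within minutes, were mostly low. Jun (25.6 ± 6.24 per kilobase), Ier2 (14.2 ± 8.39) and Dusp1 (5.50 ± 0.904) were the highest of 8. Fos had 0.379, 0.985 and 0.278 CPM, Atf3 0.607, 0.750 and 0.799 CPM, and Fosb no read. Ier2 had 35.4, 19.5 and 10.1 CPM, a ratio of 3.50 that became 2.20 after the GC correction.

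Over all expressed genes the embryos were close. The median ratio of the highest to the lowest embryo was 1.23 and the 90th percentile 1.73. The common biological coefficient of variation was 0.151, and its trend fell from a median of 0.226 for genes of 1 to 10 CPM to 0.112 for genes of 100 to 1000 CPM. A ratio of at least 2 was reached by 647 genes (4.9%). Pearson's r of log2 CPM across the 13215 genes, which are not independent replicates, was 0.989 between replicates 1 and 2, 0.988 between 2 and 3 and 0.980 between 1 and 3. The same order appeared in the counts of genes that differed 2-fold between a pair of embryos, 166, 176 and 476.

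**Figure D5:**
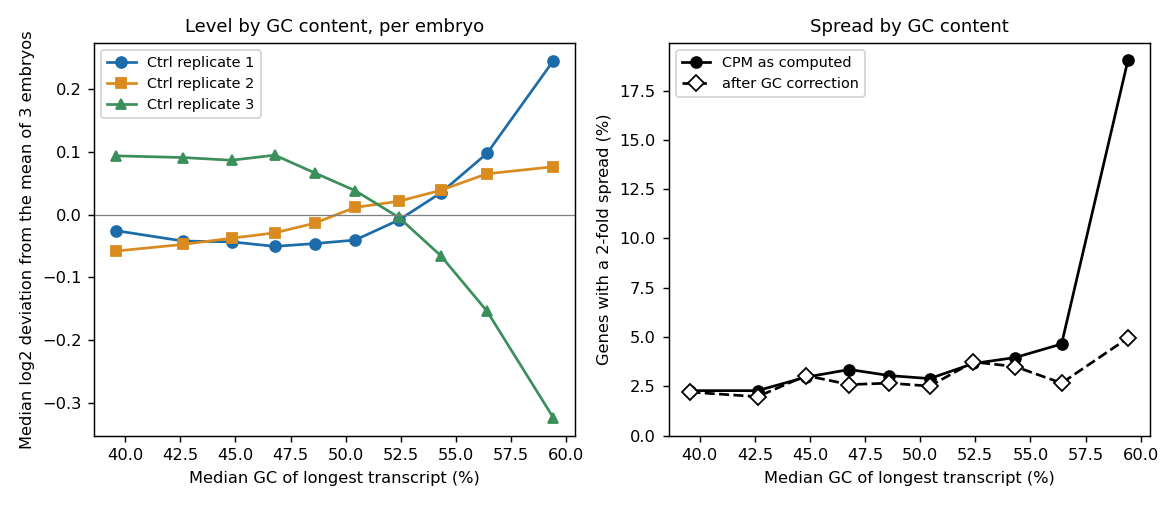
Left, median log2 deviation of each Ctrl embryo from the mean of the 3 in 10 groups of expressed genes ordered by GC content of the longest transcript. Right, percent of genes in each group with a 2-fold spread, before and after the GC correction. Replicate 1 lies at 0.24 and replicate 3 at -0.32 in the most GC-rich group, where 19.1% of genes pass 2-fold before and 4.96% after the correction.

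The spread went along with GC content. When the 13108 expressed genes with a transcript sequence were put in 10 groups of equal size by GC content, the share with a 2-fold spread was 2.29% in the group with a median GC of 39.6% and 19.1% in that with a median of 59.4%. In the GC-richest group the median log2 deviations of replicates 1 to 3 were 0.24, 0.08 and -0.32, and in the AT-richest group -0.03, -0.06 and 0.09. Of the 647 genes with a 2-fold spread, 359 were highest in replicate 1 and 393 were lowest in replicate 3. Of all 13215 expressed genes, 4417 were highest in replicate 1 and 4628 were lowest in replicate 3. Among the 647, 326 ran from high to low in the order of replicates 1, 2 and 3, a count not made over all expressed genes. A lowess correction of log2 CPM for GC content, chosen after these values were seen, left 392 of 13108 genes (2.99%) past 2-fold, against 632 of the same genes (4.82%) before it, and the ratio of Emx1 became 1.28 and that of Neurod2 1.59. Whether this gradient arose in the tissue, in RNA extraction, in library preparation or in sequencing was not tested.

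Both hem genes past 2-fold stayed past it after the correction, with a ratio of 4.30 against 5.65 for Rspo1 and 2.59 against 2.50 for Lmx1a. The other 5 expressed hem genes were under 2-fold before and after it. Wnt3a, Wnt2b and Rspo2 were under 1 CPM in replicate 3 and have no corrected value.

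The 15 largest ratios among genes with a mean of at least 5 CPM and a read in every embryo mixed several kinds of genes. The processed pseudogene Gm11868 had 26.2, 0.516 and 0.243 CPM, Gm11942 had 24.8 CPM in replicate 2 against 1.37 and 0.834 in the others, and Gm13443 had 13.6 CPM in replicate 3 against 1.82 and 1.45. Rspo2 and Rspo1 belonged to this set. Also in it were the ribosomal protein gene Rpl36 (219, 120 and 48.5 CPM), the linker histone gene H1fx (56.2, 35.5 and 12.6 CPM) and Zfp428 (18.5, 9.66 and 3.89 CPM). After the GC correction the ratios of these last genes, which are GC-rich, fell from 4.50 to 2.84, from 4.46 to 1.57 and from 4.76 to 2.45, and H1fx was then under 2-fold. The ratios of Rspo1 and Gm37416, at 59.7% GC each, fell from 5.65 to 4.30 and from 5.25 to 3.53. The histone gene Hist1h4i had 11.9, 8.63 and 1.56 CPM, and poly(A) libraries hold such transcripts only in part. AA465934, Gm4316, Gm37416, Dpm3 and 2 genes with no entry in the annotation made up the rest.

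Sex differed within the group. Xist, the RNA that silences an X chromosome in female cells, had no read in replicate 1 and 103 and 129 CPM in replicates 2 and 3. The Y-linked genes Kdm5d, Ddx3y, Uty and Eif2s3y had 39.5, 31.3, 16.7 and 12.9 CPM in replicate 1 and no read in the others. Because replicate 1 is the only embryo with Y-linked reads, its other differences from replicates 2 and 3 and its sex cannot be told apart.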

How the data were processed

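Cortices of single E12.5 mouse embryos were sequenced as stranded poly(A) libraries with 150-base paired-end reads. The authors trimmed adapters with Cutadapt, aligned to mm39 with STAR and deposited raw counts per gene from featureCounts. The versions, the annotation and the handling of strand and multiply mapping reads are not given in the sources used here. The deposited counts had no normalization or filter. The 3 Ctrl columns were used here and the 6 columns of other genotypes were left out. CPM used TMM library sizes from edgeR 4.0.16 in R 4.3.3, computed over genes with a read in Ctrl. Genes were matched by Ensembl identifier to GENCODE M21 on GRCm38, whose exon lengths, coordinates, transcripts and GC contents were used because no mm39 annotation was used here, and 52081 of 57010 matched. Unmatched genes held 0.443% to 1.09% of reads and have no level per kilobase. Expressed means at least 1 CPM in every Ctrl embryo, and a spread is a ratio of at least 2 between the highest and the lowest embryo. Dispersion was estimated by edgeR with an intercept only. Self-tests on simulated data were run on the spread and the GC correction. Figures and the lowess fit (span 0.3) used Python 3.11.15, pandas 2.3.3, statsmodels 0.14.6 and matplotlib 3.10.9. No tests between groups were made. Intervals and floors of 3 reads cover counting error only.

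The members and gene lists were chosen with earlier results of these data known. The text names the 6 markers, the 15 genes highest by CPM and per kilobase, the 15 highest transcription factors of the listed families, the 3 highest members of each list and those under 1 CPM in every embryo, the 15 largest ratios among genes with a mean of at least 5 CPM, the sex-linked genes, Cnot3 and Trp53, and further list members with their values. Ahsp of the erythroid list was not matched. Some genes that these rules name are not reported here. Alternatives were other minimum levels, plain totals, RLE factors, other filters, DESeq2 1.42.0 dispersions, leaving out globins or the mitochondrial genome, the longest transcript as gene length, and each embryo left out in turn. The GC correction was chosen after seeing the data.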

Additional observations from a re-analysis of the deposited data

How the results depend on the processing

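No paired analysis was possible because 1 group was described and no result came from a test. The number of expressed genes stayed between 10658 (minimum of 5 CPM) and 14533 (more than 10 reads in every embryo), and was 13342 to 13468 with an embryo left out. The number of genes with a 2-fold spread was 654 with plain totals and 664 with RLE factors, but 3792 when 1 read in every embryo was the only filter and 392 after the GC correction, for which 13108 genes had a GC content and 632 of these passed 2-fold before it. It was 166 to 476 with an embryo left out, 176 without replicate 1 and 166 without replicate 3. The pair that remains without replicate 2, replicates 1 and 3, was the one that differed most. The common coefficient of variation was 0.160 and 0.175 with the weaker filters, and 0.116 to 0.188 with an embryo left out. The square root of the median fitted dispersion of DESeq2, which is another statistic, was 0.143. The 100 highest genes held 18.6% of reads without globins and 18.8% without the mitochondrial genome, and 18.77% to 18.96% with an embryo left out. With the longest transcript as gene length, the list medians moved by more than the SD between embryos in 14 of 31 lists, as for radial glia (43.4), neurons (23.7) and DNA replication (118), and radial glia stayed above neurons. Intermediate progenitors, at 20.99 against 16.3 for neurons with exon length, were then below them, at 21.98. With an embryo left out 6 of 93 list medians moved that far, all in the choroid plexus and the midbrain and hindbrain lists, which are near 0. The GC correction moved the range of mean deviations in 7 of 26 lists. Precision is limited by 3 embryos of mixed sex, by reads that may have been counted at several places, and by an exon length from another build's annotation.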
